A study of Citrus reticulata with 36 samples.

Results

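Nucellus and integument of ovules of the ponkan cultivar "Huagan No.4" (HG, Citrus reticulata, a mandarin-type citrus) were compared at 18 days after pollination (DAP). The comparison holds 6 of the 36 libraries of the series, 3 nucellus and 3 integument, and takes nucellus minus integument over all gene identifiers. Of 57344 identifiers that passed a filter over the whole series, 1759 were called with the higher level in nucellus and 3159 with the higher level in integument. Among nucellus-side identifiers with the highest read counts, 5 of 6 differed by more than 16-fold. In the next class down, the median log2 differences were 1.82 for nucellus calls and -1.97 for integument calls. The integument side held more identifiers and, at the median, larger differences.

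The nucellus is the maternal tissue in the middle of the ovule that encloses the embryo sac. It feeds the early embryo and endosperm and is consumed as the seed grows, and in many citrus its cells also form asexual embryos. The integument surrounds the nucellus and becomes the seed coat.

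The series asked about seed abortion and sampled 2 cultivars, HG and "Egan No.1" (EG), in both tissues at 18, 28 and 32 DAP, with 3 libraries for each of the 12 groups. Cells were cut out by laser capture microdissection, a method that isolates chosen cells from a tissue section under a microscope, and nanogram amounts of their RNA were amplified as cDNA before sequencing. The samples are labelled as biological replicates, but the labels do not say from which tree or fruit each region was cut or how regions were chosen. Regions of a group may therefore share a plant. The p-values set each difference against the spread between libraries within groups, estimated over all 12 groups, and would then be too small. Fewer cells of a type and less RNA per cell cannot be told apart in such captures. The data columns number the stages 1 to 3. These numbers were taken to follow the 3 DAP values from earliest to latest, an ordering that the labels leave unstated.

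The 6 libraries held between 13464464 and 16938580 counts, with 58421 to 63014 identifiers detected in each. The files do not pair the identifiers with gene names, so no pathway or marker list could be matched, and 2 identifiers per direction are printed. Spearman correlations of the levels were 0.900 to 0.947 within a tissue and 0.830 to 0.886 between the tissues. Replicates 1 and 2 were the most alike pair in both tissues, and replicates 2 and 3 the least alike. Among identifiers with a mean of at least 5 CPM (counts scaled to a fixed library total, normalised), 3.72% lay at least 2-fold below both other libraries in nucellus replicate 3 and 5.19% in integument replicate 3. In the other 4 libraries this share was 0.389% to 2.04%. The deviations of replicate 3 from the group mean correlated at 0.22 between the tissues of HG. Between HG and EG replicate 3 they correlated at 0.28 in nucellus and 0.39 in integument. What replicates of the same number share is not given in the labels.

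The tissue labels were checked with identifiers chosen by their tissue difference in EG, since no marker gene could be named. The p-values used in that choice came from the fit of all 36 libraries, so HG libraries entered the estimate of the spread. A set of 160 identifiers was at least 32-fold higher in EG nucellus averaged over the stages, and 563 were at least 32-fold higher in EG integument (called sets of all sizes: 9.82% and 13.3% of the identifiers tested). In the HG libraries at 18 DAP the nucellus set summed to 2.16%, 2.28% and 2.48% of the normalised counts in nucellus and to 0.0224% to 0.0297% in integument. The integument set summed to 0.538%, 0.579% and 0.654% in integument and to 0.0144% to 0.0166% in nucellus. Every library thus carried the set of its labelled tissue, and the groups did not overlap. For the median member, the level in the other tissue was 0.425% to 0.749% of the preferred tissue's level in the integument libraries and 0.842% to 0.935% in the nucellus libraries. These shares depend on the fold that chose the sets: for sets chosen at 4-fold they were 6.36% to 9.45% in the integument libraries and 5.602% to 8.53% in the nucellus libraries. Carry-over of neighbouring cells and true expression in both tissues cannot be told apart in these shares.

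The tissue difference was tested with edgeR's quasi-likelihood F test in 1 fit of all 36 libraries, and "called" means a Benjamini-Hochberg adjusted p below 0.05. Libraries were not paired by replicate number. The test called 4918 identifiers (8.58%), made up of 1759 nucellus calls (3.07%) and 3159 integument calls (5.51%). Their 3 libraries a side did not overlap for 96.1% of the nucellus calls and 96.8% of the integument calls. Over all identifiers tested, 12.4% stood entirely higher in nucellus and 14.3% entirely higher in integument. The median of all differences was 0.01 on the log2 scale, a value that the normalisation holds near 0, so the differences are relative to the bulk of identifiers. The count fell whichever of the 6 compared libraries was left out. It was lowest at 3094 without nucellus replicate 2 and highest at 3738 without integument replicate 1. Nucellus calls were then 1160 to 1380 and integument calls 1904 to 2536. Integument calls outnumbered nucellus calls in each of these fits.

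Differences on the integument side were larger. The median log2 difference was 2.00 among nucellus calls and -2.79 among integument calls. Differences of at least 16-fold made up 313 of the 1759 nucellus calls (17.8%) and 867 of the 3159 integument calls (27.4%). Where 1 tissue had 0 counts, the fold was taken as a bound against 3 counts over the group, and with these bounds the median sizes were 2.00 for nucellus calls and 2.75 for integument calls. At the other end, 217 nucellus calls and 147 integument calls were under 2-fold.

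**Figure D1:**
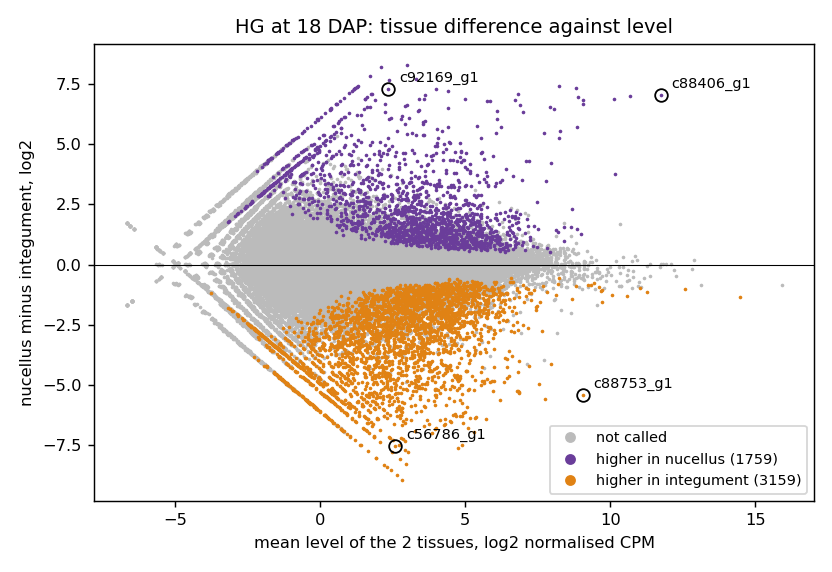
Nucellus minus integument (log2) against the mean level of both tissues (log2 normalised CPM) for each identifier in HG at 18 DAP, with calls in purple (1759 higher in nucellus) and orange (3159 higher in integument) and the 4 named identifiers circled. Identifiers with 0 counts in 1 tissue are drawn at their bound against 3 counts over the group, which gives the slanted lines at low levels.

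Among nucellus calls at least 4-fold apart, c88406_g1 had the highest CPM. It stood at 6908, 7337 and 6250 CPM in the 3 nucellus libraries (mean 6832 ± 548, SD) and at 50.3, 47.6 and 55.5 CPM in the 3 integument libraries (mean 51.1 ± 4.01, SD). All nucellus libraries were high and close together, and the groups lay far apart. The log2 difference was 7.06 (SE 1.09, edgeR adjusted p = 8.83e-05). It ranked at place 5 among all identifiers by CPM in nucellus, a scale that is not corrected for length. The same identifier was called higher in nucellus in each of the other 5 comparisons of cultivar and stage, with log2 differences of 6.67 to 8.40. Its lowest nucellus library was at 32 DAP in HG, where the 3 libraries ran from 545 to 8824 CPM.

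The largest fitted difference on the nucellus side was that of c92169_g1. Its nucellus libraries held 14.1, 15.01 and 1.48 CPM, from 236, 223 and 22 counts, and all 3 integument libraries held 0 counts. Replicate 3 was far below the others, yet above every integument library. Against 3 counts over the integument group, the mean of 10.2 ± 7.58 CPM (SD, n = 3) was 159-fold higher (edgeR adjusted p = 6.03e-05). That fold allows for the 0 counts in integument, not for the spread of the nucellus libraries. It was called in the other 5 comparisons too, with log2 differences of 6.17 to 8.43.

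On the integument side, c88753_g1 had the highest CPM among calls at least 4-fold apart. Its integument libraries stood at 641, 496 and 1971 CPM, and its nucellus libraries at 16.3, 24.0 and 32.6 CPM. Replicate 3 was the highest library in both tissues, and the groups did not overlap. The log2 difference was -5.41 (SE 1.08, edgeR adjusted p = 0.00150), and -4.54 without integument replicate 3 (edgeR adjusted p = 0.00875). The mean integument level in HG was 1036 ± 813 CPM at 18 DAP, 111 ± 19.6 CPM at 28 DAP and 538 ± 315 CPM at 32 DAP (SD, n = 3 each). The libraries at 32 DAP ran from 190 to 803 CPM and overlapped those at 18 DAP. A change in this level was not tested. In EG the tissue difference was -5.13, -4.98 and -3.02 at 18, 28 and 32 DAP (edgeR adjusted p = 0.00248, 0.00269 and 0.0582). In HG it was -2.68 (adjusted p = 0.0927) at 28 DAP and -4.88 (adjusted p = 0.00433) at 32 DAP in edgeR's test. The test of 18 DAP against the later stages gave an edgeR adjusted p of 1.00 for it.

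The largest fitted difference on the integument side was that of c56786_g1. It held 15.4, 4.67 and 15.97 CPM in the integument libraries, from 262, 73 and 227 counts, and 0 counts in the 3 nucellus libraries. Its mean of 12.03 ± 6.38 CPM (SD, n = 3) was 186-fold above 3 counts over the nucellus group (edgeR adjusted p = 0.000722). The spread of the integument libraries is again not in that fold. In the nucellus of EG at 18 DAP it had 0.472 to 1.07 CPM, and the difference there was -4.71 (adjusted p = 0.00923). At 28 and 32 DAP in EG the difference was -5.47 and -5.75 (edgeR adjusted p = 0.00430 and 0.00379). In HG it was -2.94 at 28 DAP (adjusted p = 0.108) and -3.35 at 32 DAP (adjusted p = 0.110) by edgeR. In the tests of 18 DAP against later stages and of HG against EG, its fitted log2 differences were -7.59 and -6.02. The unadjusted edgeR p were 0.00464 and 0.0372, and both were 1.00 after adjustment.

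**Figure D2:**
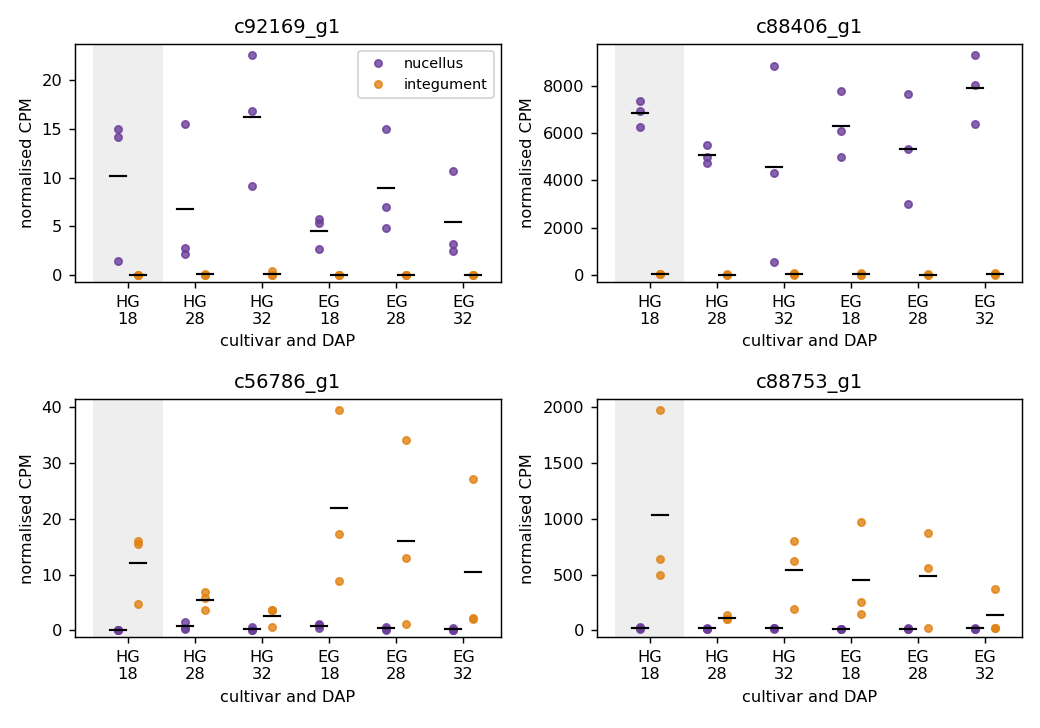
Normalised CPM of the 4 named identifiers in all 36 libraries, by cultivar and DAP, with nucellus in purple, integument in orange, 1 point per library and a bar at the mean of 3. The shaded column is HG at 18 DAP, where c88406_g1 lies between 6250 and 7337 CPM in nucellus and c88753_g1 between 496 and 1971 CPM in integument.

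At 1000 CPM or more, on few identifiers, the sides differed in the size of their calls. Of 63 identifiers with at least 1000 CPM in a tissue, 6 were nucellus calls and 11 were integument calls. All 6 on the nucellus side were large, from 3.77 to 7.06 on the log2 scale, and 5 exceeded 16-fold. The 11 on the integument side ran from -0.92 to -5.41, and 1 of them, c88753_g1, exceeded 16-fold. It reached a mean of 1000 CPM through integument replicate 3, the other libraries being below that. Together the 6 took 1.55%, 1.63% and 1.78% of the normalised counts in the nucellus libraries and 0.0262% to 0.0281% in the integument libraries. The 11 took 5.09%, 5.24% and 6.66% in integument and 1.93% to 2.93% in nucellus. All 6 were also called higher in nucellus in each of the other 5 comparisons of cultivar and stage, where 1.8% to 3.43% of all identifiers were. Of the 11, 6 to 9 were called higher in integument there, against 3.68% to 5.61% of all identifiers. Between 100 and 1000 CPM the median log2 difference was 1.82 over 104 nucellus calls and -1.97 over 109 integument calls. Between 10 and 100 CPM the medians were 1.53 and -2.09. In each class below 1000 CPM the integument median was the larger in size.

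The share called rose with CPM. Below 1 CPM in the higher tissue, 1.06% of 11249 identifiers were nucellus calls and 1.83% were integument calls. Between 1 and 10 CPM these shares were 2.35% and 5.33% of 25057. Between 10 and 100 CPM they were 4.74% and 7.54% of 19847, and between 100 and 1000 CPM they were 9.22% and 9.66% of 1128. At 1000 CPM or more they were 9.52% and 17.5% of 63, which is 6 and 11 identifiers. Identifier length, taken from the ratio of counts to FPKM, had a median of 1947 bases among nucellus calls and 1916 among integument calls with a length, against 1891 over all those tested that had one.

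**Figure D3:**
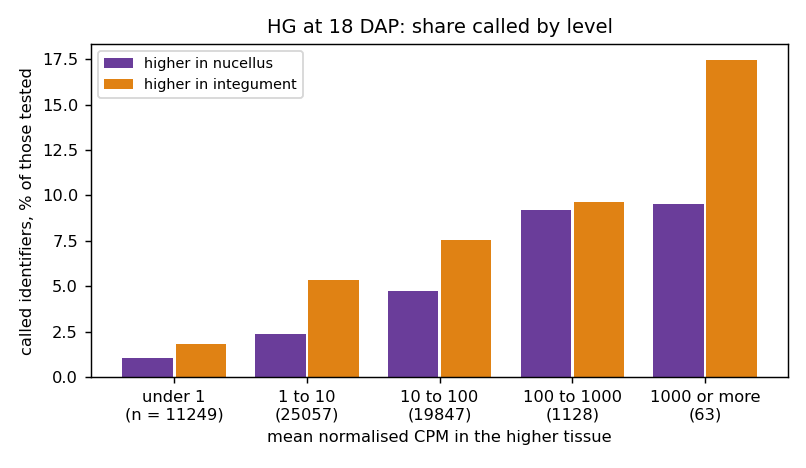
Share of tested identifiers called higher in nucellus (purple) and in integument (orange), in % of those tested, by mean normalised CPM in the higher tissue in HG at 18 DAP. The integument bar is above the nucellus bar in each class, by little between 100 and 1000 CPM (9.66% against 9.22%) and by most at 1000 CPM or more (17.5% against 9.52%), a class of 63 identifiers.

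Calls with 0 counts in the 3 libraries of the other tissue were at low levels, which a rule of 0 counts favours. Among nucellus calls, 111 had 0 counts in the 3 integument libraries, and among integument calls 213 had 0 counts in the 3 nucellus libraries. Their median levels were 0.853 and 0.836 CPM, and 4 and 6 of them reached 5 CPM. Of the 111, 2 had 0 counts in all 15 other integument libraries of the series, and of the 213, 4 had 0 counts in all 15 other nucellus libraries. A count of 0 in the 3 libraries allows a level of up to 0.0641 CPM in integument and 0.0646 CPM in nucellus, by counting error alone.

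The 100 identifiers with the highest CPM in nucellus and the 100 in integument had 75 in common. Of the nucellus list 17 were called higher in nucellus and 9 lower, and of the integument list 16 were called higher in integument and 0 lower. For identifiers with at least 10 CPM in a tissue (21038), 12.7% were called. A further 44.3% were not called and had a 95% interval of the difference within 2-fold either way. For the other 43.0% the interval was wider, so a 2-fold difference was neither called nor bounded at this depth and replication. The 10 identifiers with the most counts took 10.5%, 9.25% and 13.1% of the counts in nucellus and 16.9%, 14.6% and 17.6% in integument. The groups did not overlap, and the two-sided exact permutation test gave p = 0.1, the smallest it can give with 3 against 3. Thinned to 10000000 counts per library, 59177 ± 1358 identifiers were detected in nucellus and 58729 ± 1767 in integument (SD, n = 3 each; exact permutation p = 0.8, two-sided).

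The same difference was measured in EG at 18 DAP in 6 other libraries. Of the 4918 HG calls, 4806 (97.7%) had the same direction in EG. Among the nucellus calls 96.4% were higher in EG nucellus, where 50.6% of all tested identifiers were, and among the integument calls 98.5% were higher in EG integument, where 49.3% of all were. EG called 2.38% of all identifiers as higher in nucellus and 4.53% as higher in integument. It called 972 of the 1759 (55.3%) and 1992 of the 3159 (63.1%), and 0 in the opposite direction. The median difference of these sets was 1.46 and -2.30 in EG against 2.00 and -2.79 in HG, where the choice of the sets favours HG. The Spearman correlation of the HG and EG differences was 0.62 over all 57344 identifiers and 0.80 over the 30532 with at least 5 CPM in an HG tissue, given as a description across identifiers that are not independent replicates.

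A direct test of HG against EG, tissue difference against tissue difference at 18 DAP, called 0 identifiers with edgeR (0%), with 1313 (2.29%) at an unadjusted p below 0.05. Evenly spread p-values would put a larger share below 0.05. The 0 calls do not show that the tissue difference was equal in HG and EG. DESeq2 and voom with sample quality weights called 0, and limma on FPKM called 1. Of the HG calls past 16-fold, 30 of 313 on the nucellus side and 23 of 867 on the integument side were under 2-fold in EG or lay in the other direction, sets picked after the values were seen. They had few reads, with a median of 1.04 and 0.909 CPM in the higher HG tissue, against 5.66 and 6.03 CPM for the other strong calls. The lowest edgeR adjusted p among them for the difference between cultivars was 1.00.

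**Figure D4:**
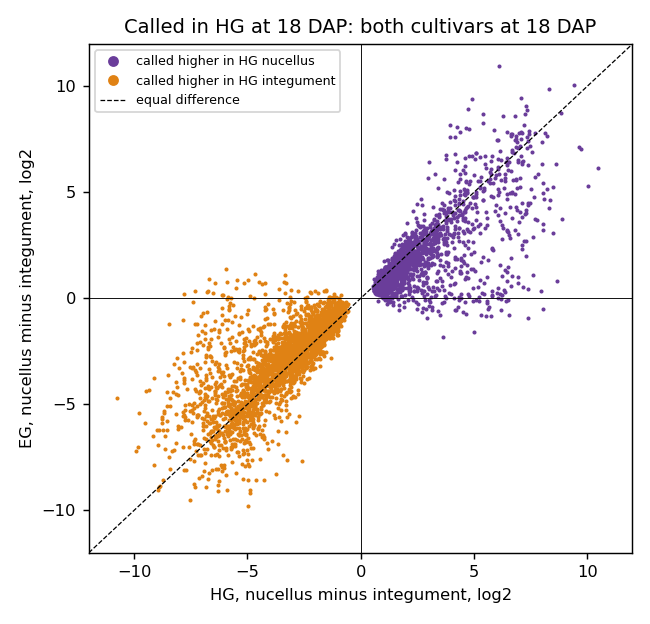
Nucellus minus integument (log2) in EG against that in HG, both at 18 DAP, for the identifiers called in HG (purple, 1759 higher in nucellus; orange, 3159 higher in integument), with a dashed line of equal difference. Of the 4918 points, 4806 have the same sign in both cultivars.

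Later stages of HG showed the same directions. Of the nucellus calls at 18 DAP, 94.7% were higher in nucellus at 28 DAP and 95.7% at 32 DAP, and of the integument calls 97.1% and 97.2% were higher in integument. At 28 DAP 814 nucellus and 1660 integument calls were called again, and at 32 DAP 690 and 1595. Over all identifiers the nucellus and integument shares called were 2.73% and 4.51% at 28 DAP and 1.8% and 3.68% at 32 DAP. In the opposite direction 1 identifier was called, an integument call at 18 DAP that was called higher in nucellus at 32 DAP. Counting all 5 other comparisons of cultivar and stage, 388 nucellus calls (22.1%) and 957 integument calls (30.3%) were called in every one. EG called 3.43% and 5.61% of all identifiers at 28 DAP and 2.33% and 4.54% at 32 DAP. In turn 505 nucellus calls (28.7%) and 547 integument calls (17.3%) were called at 18 DAP in HG and in no other comparison. Of these, 314 and 347 had the same direction in all 5 others. Among all nucellus and integument calls, 1530 (87.0%) and 2895 (91.6%) did. For counts that join the 5 comparisons, the matching shares over all identifiers are not given here. Over the full sets of 505 and 547, the median log2 differences in the 5 others were 0.43 to 0.64 and -0.60 to -0.85. In HG at 18 DAP the medians of these full sets were 1.76 and -2.08.

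Whether 18 DAP differed from the mean of 28 and 32 DAP in HG was tested directly. EdgeR called 0 identifiers, with 2374 (4.14%) at an unadjusted p below 0.05, while DESeq2 called 1, limma on log2(FPKM + 1) called 4 and voom 0. EdgeR called 1 without integument replicate 1 at 18 DAP or without nucellus replicate 1 at 32 DAP. A call made at 18 DAP and missed at a later stage is not shown to differ between them. The share of 4.14% is also under that of evenly spread p-values, and 0 calls do not show that the stages were alike.

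Sets chosen in EG favour no HG stage, and with them the size of the difference could be followed over time. For 1097 identifiers at least 4-fold higher in EG nucellus, the median HG difference was 3.06 at 18 DAP, 3.33 at 28 DAP and 2.42 at 32 DAP. For 3327 at least 4-fold higher in EG integument it was -3.07, -2.92 and -2.78. At 18 DAP the quartiles over identifiers were 2.01 and 4.62 for the nucellus set and -4.68 and -2.05 for the integument set. They give the spread between members of a set, not between libraries, so they cannot show whether the stages differed. A change of these medians between stages was not tested. Of these sets 51.0% and 52.4% were called in HG at 18 DAP, against 3.07% and 5.51% of all identifiers, and 0 in the opposite direction.

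**Figure D5:**
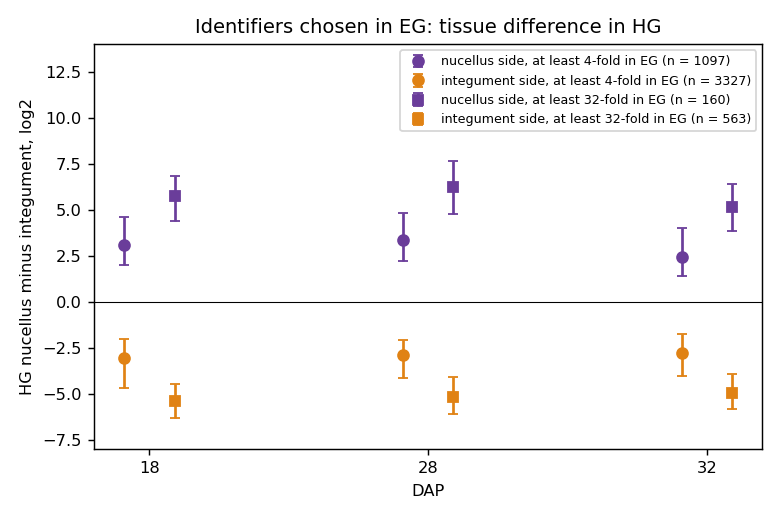
Median HG difference between nucellus and integument (log2) at 18, 28 and 32 DAP for identifiers chosen in EG at 4-fold (circles) and 32-fold (squares), with bars from the lower to the upper quartile over identifiers. On the nucellus side the 4-fold set stands at 3.06, 3.33 and 2.42, and on the integument side at -3.07, -2.92 and -2.78.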

How the data were processed

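The authors deposited whole-number read counts per gene identifier and FPKM values (fragments scaled to length and depth, rounded by the authors), with no pooling of libraries per the file headers. The submitters' processing notes name the tools cutadapt, Bowtie2, RSEM and DESeq without versions. The role of each tool, the assembly and any rounding of RSEM estimates were not given in the sources used here. The table held 128861 identifiers, 34664 without any count, so copies of a gene may be split or share reads.

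edgeR 4.0.16 (R 4.3.3) with TMM factors was fitted to 36 libraries with 12 group means. filterByExpr (minimum count 10, minimum total 15) left 57344 identifiers with 99.9% of the counts. The fit had 24 residual degrees of freedom and a common biological coefficient of variation of 0.439. Adjusted p-values cover all identifiers tested. Standard errors were derived from each fold change and its F statistic, and levels are TMM-normalised CPM. The fit was tested on simulated counts drawn independently for each library, without any effect shared by replicates of the same number. Alternatives used DESeq2 1.42.0 and limma 3.58.1.

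Named identifiers are, per direction, the largest fitted fold change and the highest CPM among calls at least 4-fold apart, without overlap between libraries and reaching 5 CPM in the higher tissue. Members and sets were chosen with earlier results of these data known. Amplified reads carry no molecular identifiers, so counting limits cover counting error alone. No 2 of the 6 libraries agreed within sampling noise (chi-square per degree of freedom at least 14.0).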

Additional observations from a re-analysis of the deposited data

How the results depend on the processing

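Each of the 4 named identifiers kept its direction and its call in all 17 alternatives. Of the 4918 calls, DESeq2 (6724 calls) shared 4907, edgeR without a filter (3780) 3771, and edgeR on the 6 libraries alone (4665) 3495. Voom with quality weights called 8093 (3326 nucellus, 4767 integument). The replicate block called 8548 (3474 and 5074). Same-numbered libraries of the tissues deviated together at 0.05, 0.12 and 0.22 in HG at 18 DAP, where nucellus replicate 1 correlated best with integument replicate 2, and at 0.17 to 0.46 in the other 5 groups of cultivar and stage. The numbers were not taken as pairs because the labels give no shared source and 1 of the 3 pairs compared is under 0.1, the level asked of every pair. If they are pairs, the main fit of 4918 calls leaves that pairing out, and the replicate block calls more. A term for the replicate number within each stage, added after seeing the data, gave 5755. With 1 of the 6 compared libraries left out, the calls were 3094 to 3738 (1160 to 1380 nucellus, 1904 to 2536 integument). Without EG nucellus replicate 1 at 28 DAP, which is in the fit but not in the comparison, they rose to 6161 (2456 and 3705). The lone removal of a replicate leaves 2 libraries that are assumed to vary like the other groups. The share of calls with the same direction in EG was 97.1% to 98.4% with 1 of the 6 libraries left out. It held for 7804 of 8093 calls with voom, 6492 of 6724 with DESeq2 and 4159 of 4190 with at least 5 CPM required. For 18 DAP against later stages DESeq2 called 1 and limma on log2(FPKM + 1) 4, and 0 to 1 were called with 1 library left out. For HG against EG limma on FPKM called 1 at either pseudocount, and 0 were called in the 13 fits with 1 library left out, the 12 libraries at 18 DAP and EG nucellus replicate 1 at 28 DAP. In each case the cause was not tested.

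The level of EG-chosen sets in the other tissue moved with the set. With at least 10 CPM required it was 1.13%, 0.809% and 1.69% in integument replicates 1 to 3 and 2.06%, 1.60% and 1.61% in nucellus. At 16-fold it was 1.58%, 1.28% and 1.31% in nucellus. At 64-fold it was 0.969% in integument replicate 3 and 0.778% and 0.786% in nucellus replicates 2 and 3. Below 1 CPM, where counts are few, 1.06% and 1.83% were called, and calls at another depth were not tested.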
